A study of Mus musculus with 4 samples.

Results

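The data described here are the mRNA levels of 10 feedback regulators of Toll-like receptor (TLR) and NF-κB signalling in splenic B cells stimulated with LPS. The genes are Tnfaip3, Tnip1, Tnip2, Irak2, Irak3, Traf1, Traf6, Peli1, Zc3h12a and Cyld, taken by symbol from a list of names that was drawn up with earlier results of these data known. All 10 were found among the 30041 genes of each sample, and all 10 were among the 9727 genes with an RNA-seq score of at least 0.005 in at least 1 sample that were tested. RNA-seq was done on 2 control and 2 cKO samples of purified C57BL/6 mouse splenic B cells after 72 h with LPS, a bacterial cell wall component that activates B cells through TLR4. The methods give 20 μg/ml LPS, and the labels give the same figure in mg/ml. The cKO mice were Nfkbiz fl/Δ Mb1 cre/+, in which Cre under the Cd79a (Mb1) promoter deletes Nfkbiz, the gene for the nuclear protein IκB-ζ, in the B lineage. The labels name the other mice only as control, and the methods use Nfkbiz fl/Δ mice without Cre as the comparison in cell sorting, so that controls of that genotype would carry 1 deleted allele as well. The ages of the mice, and whether mice were pooled, were not given in the sources used here.

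LPS bound by TLR4 assembles MyD88 with kinases of the IRAK family, which recruit the ubiquitin ligase TRAF6. The ubiquitin chains made there bring the kinases that free NF-κB from its IκB inhibitors. NF-κB then switches on genes that act back on the pathway: ubiquitin-editing proteins such as A20 take the chains apart, IRAK-M holds the IRAK complex inactive, and the RNase Regnase-1 degrades the mRNAs of inflammatory genes, that of Nfkbiz among them. Loss of A20 in B cells is known to raise NF-κB activity.

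Sequences in front of the regulators were read because several of these genes are textbook NF-κB targets. In the RefSeq promoter windows, which run from 250 bases before to 50 bases after a transcription start, the NF-κB consensus motif of 10 bases was searched on both strands. All 10 genes had a window, 12 windows in all, and each was placed on NCBIM37 (mm9) by an exact and single match. The motif was found in 3 of 12 windows, those of Tnfaip3, Tnip1 and Cyld, against 8.46% of all 32851 windows of that length. A match is a description of the letters and not a site of binding. The stretches below show each match in capitals, in the 5′ to 3′ direction of the gene, with 15 bases on either side in lower case. The first base of the match lies at -125 and -12 from the start of Tnfaip3, at -57 from that of Tnip1 and at -155 from that of Cyld. In Tnip1 the match overlaps others shifted by 1 base to either side, counted here as the same place.
Tnfaip3, chr10:18735317-18735356, minus strand: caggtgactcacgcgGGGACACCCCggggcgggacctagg
Tnfaip3, chr10:18735204-18735243, minus strand: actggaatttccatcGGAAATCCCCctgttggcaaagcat
Tnip1, chr11:54776475-54776514, minus strand: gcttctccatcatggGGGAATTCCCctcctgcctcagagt
Cyld, chr8:91220757-91220796, plus strand: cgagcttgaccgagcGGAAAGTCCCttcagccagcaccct
In the windows of Irak2, Irak3, Traf1, Traf6, Peli1, Tnip2 and Zc3h12a these letters do not occur, which says nothing of sites elsewhere. Among the 3 genes with the motif, the log2 fold change between cKO and control was above 0 for Tnip1 and below 0 for Tnfaip3 and Cyld, and none of them passed the test described next.

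The targeted gene was checked first. Nfkbiz had scores of 0.0241 and 0.0226 in control B cells and 0.0127 and 0.0116 in cKO B cells. The difference was -0.94 on the log2 scale with a standard error of 0.0956 (limma adjusted p = 0.0282). Which exons the score covers was not given in the sources used here, so the deleted part could not be read alone. For Cd79a, whose promoter drives Cre, the controls scored 0.667 and 0.743 and the cKO samples 0.415 and 0.407 (log2 fold change -0.78, limma adjusted p = 0.0294). As the paper describes the mice, only cKO mice carried Cre, and its part in this and other differences was not tested. The other 5 genes of a B cell marker list were present in all 4 samples, and none of these 5 passed the test. At an unadjusted limma p under 0.05, 2 of the 6 were lower (Cd79a and Cd22) and 0 higher, against 11.5% and 10.8% of all genes tested. Cd22 had a log2 fold change of -0.35 (limma adjusted p = 0.107). Both cKO samples scored below both controls for 4 of the 6 and above them for 1, against 30.1% and 28.1%. The score has no stated unit. If it stands for reads divided by exon length and library size, as its low values allow, the libraries held 17500000 to 19900000 reads, for summed scores of 604.2 to 637.6, and the regulators had from 616 to 8798 reads per sample. These reads take all annotated exon bases of a gene and would be fewer if the score used a shorter length. Counting error would be up to 4.03% of a value with the reads as inferred, and larger with fewer reads. The spread between samples of a group reached 19.9% (the coefficient of variation of Traf6 in control B cells).

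No regulator passed the test: of the 10 genes, 0 were lower and 0 were higher in cKO B cells at a limma adjusted p under 0.05. The adjusted p of the regulators ranged from 0.139 to 0.837. Among all 9727 genes tested, 1.25% were lower and 0.812% were higher at that threshold, and without cKO replicate 1 no gene passed (517 lower and 424 higher by unadjusted limma p). At an unadjusted p under 0.05, Irak3 and Tnfaip3 were lower and Tnip2 and Irak2 were higher, 2 of 10 in each direction, where 11.5% and 10.8% of all genes tested were lower and higher. The pair of cKO samples scored below the pair of controls for 3 regulators (Tnfaip3, Irak3 and Zc3h12a) and above it for 5 (Tnip1, Tnip2, Irak2, Traf6 and Peli1). Over all genes tested, 30.1% were separated in the downward and 28.1% in the upward direction, so separation of 2 samples from 2 is common in these data. With 2 samples a group, the smallest two-sided p of an exact permutation test is 0.33.

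The intervals of the fold changes set limits on what a change could have been. Log2 fold changes of the regulators ran from -0.32 (Irak3 and Tnfaip3) to 0.38 (Traf6), with a median of 0.10 against -0.01 for all genes tested. The median size of the log2 fold change, without its sign, was 0.27 for the regulators and 0.15 for all genes tested. For all 10 regulators the 95% interval of the fold change, not adjusted for the number of genes, excluded a 2-fold change in either direction. Its lowest bound was 0.645-fold (Tnfaip3) and its highest 1.69-fold (Traf6), and for 6 of the 10 it also excluded a 1.5-fold change. The genes that did pass the test had a log2 fold change of at least 0.46 in size, larger than that of any regulator. In bulk samples, fewer cells of a type and less RNA per cell cannot be told apart.

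**Figure D1:**
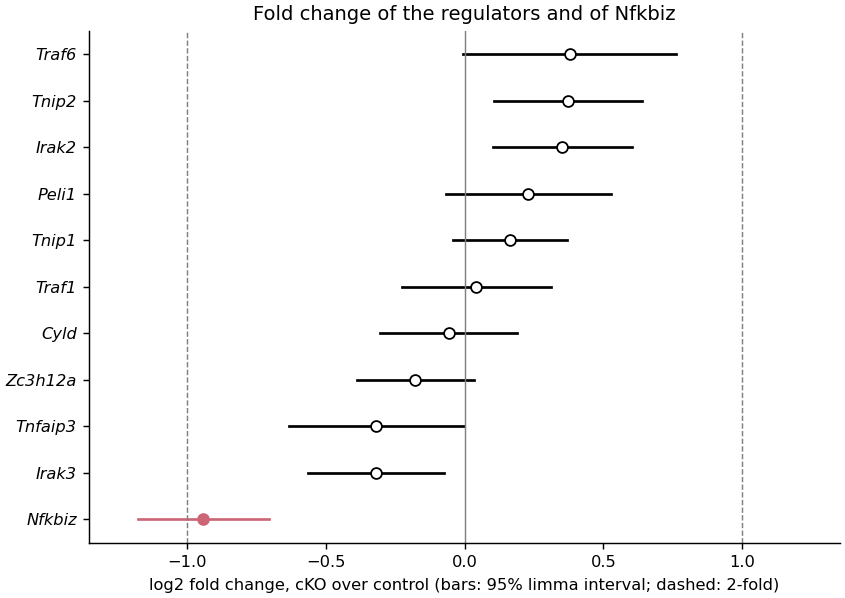
Log2 fold change (cKO over control, x axis) of the 10 regulators and of Nfkbiz, the targeted gene, from limma with 2 samples per group; bars are 95% intervals and dashed lines mark a 2-fold change. The regulators lie between -0.32 and 0.38 with intervals inside the dashed lines, and Nfkbiz (filled) lies at -0.94.

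**Figure D2:**
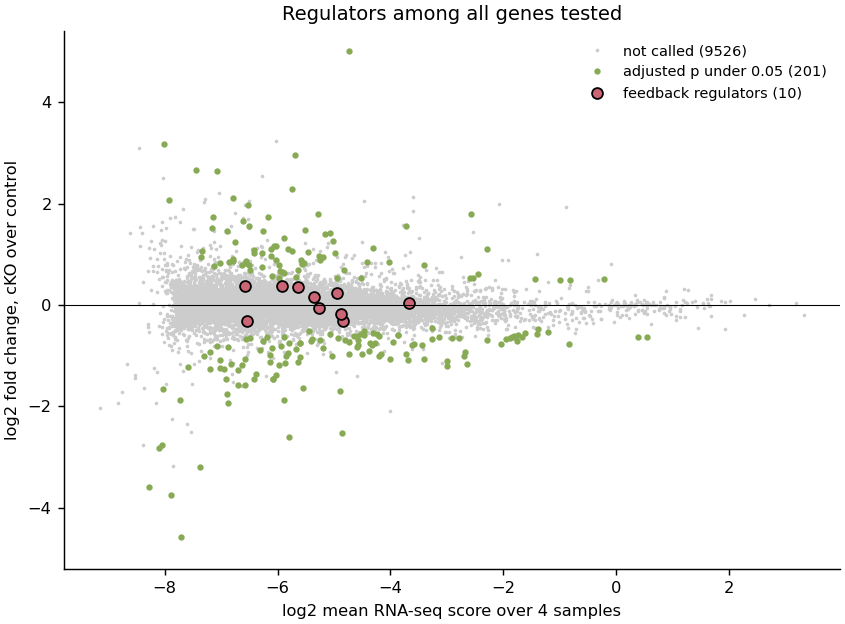
Log2 fold change (cKO over control, y axis) against the log2 mean RNA-seq score over 4 samples (x axis) for the 9727 genes tested, with the genes at an adjusted p under 0.05 in green and the 10 regulators as large points. The regulators lie within the grey band of genes that did not pass the test.

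Tnfaip3 encodes A20, which removes activating ubiquitin chains from TRAF6 and RIPK1 and adds chains that mark RIPK1 for degradation. The score of Tnfaip3 was 0.0400 and 0.0373 in control B cells and 0.0277 and 0.0347 in cKO B cells. Both cKO samples were lower, and they differed from each other more (1.26-fold) than the controls did (1.07-fold). The fold change was 0.802 (95% interval 0.645 to 0.998, limma adjusted p = 0.222). On NCBIM37 the gene lies on the minus strand at chr10:18720716-18735463.

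Tnip1 and Tnip2 encode ABIN-1 and ABIN-2, ubiquitin-binding partners of A20. The score of Tnip1 was 0.0226 and 0.0236 in control B cells and 0.0262 and 0.0256 in cKO B cells, with a fold change of 1.12 (95% interval 0.972 to 1.29, limma adjusted p = 0.303). That of Tnip2 was 0.0138 and 0.0150 in control B cells and 0.0200 and 0.0174 in cKO B cells, with a fold change of 1.29 (95% interval 1.08 to 1.56, limma adjusted p = 0.139). For both genes the groups did not overlap, and the cKO samples were the higher ones. Within a sample, Tnip2 stood at 0.611 and 0.637 times the score of Tnip1 in control B cells and at 0.766 and 0.680 times in cKO B cells. Tnip1 lies at chr11:54724289-54776419 and Tnip2 at chr5:34838736-34856646, both on the minus strand.

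Cyld encodes a deubiquitinase that cleaves Lys-63-linked and linear chains and so limits signalling to NF-κB. The score of Cyld was 0.0284 and 0.0247 in control B cells and 0.0255 in both cKO samples. The cKO values lay between those of the controls, and the fold change was 0.961 (95% interval 0.811 to 1.14, limma adjusted p = 0.755). The gene is on the plus strand at chr8:91220927-91275844.

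**Figure D3:**
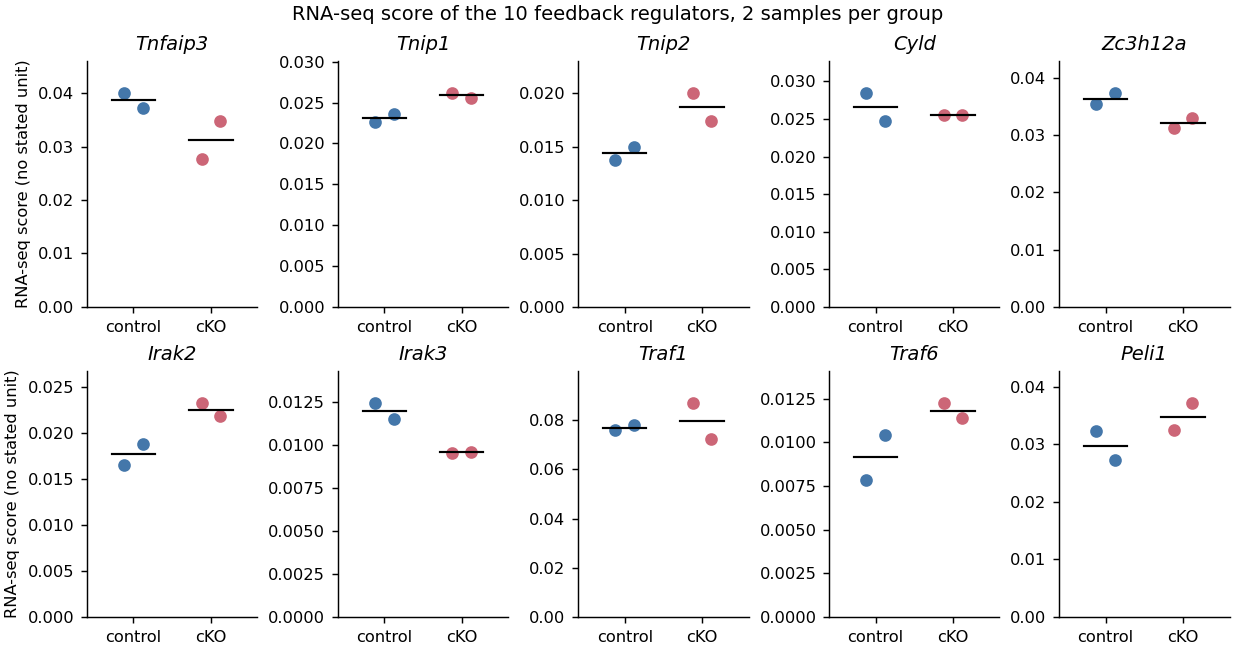
RNA-seq score (y axis, from 0, no stated unit) of each regulator in the 2 control and 2 cKO samples; points are samples, with replicate 1 on the left, and lines are group means. The groups overlap for Cyld and Traf1 and are apart for the other 8 genes, least so for Peli1.

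Irak2 and Irak3 are members of the IRAK family with opposite roles: IRAK2 sustains signalling from MyD88, and IRAK-M, the product of Irak3, restrains it. The score of Irak2 was 0.0166 and 0.0189 in control B cells and 0.0233 and 0.0219 in cKO B cells, with a fold change of 1.28 (95% interval 1.07 to 1.52, limma adjusted p = 0.139). Irak3 had scores of 0.0124 and 0.0115 in control B cells and 0.00953 and 0.00956 in cKO B cells, with a fold change of 0.802 (95% interval 0.676 to 0.951, limma adjusted p = 0.158). Neither passed the test, and each had separate groups, with cKO samples the higher ones for Irak2 and the lower ones for Irak3. The score of Irak2 over that of Irak3 within a sample was 1.33 and 1.65 in control B cells and 2.44 and 2.29 in cKO B cells. This ratio was chosen with the values known and carries no test. Irak2 lies on the plus strand at chr6:113588461-113645003 and Irak3 on the minus strand at chr10:119578704-119639186, where 192 of its exon bases (5.22%) overlap exons of Tmbim4 on the other strand. Whether strand was used in counting was not given in the sources used here, so reads there cannot be assigned to either gene with certainty.

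Traf6 encodes the ubiquitin ligase at the centre of TLR signalling, and Traf1 an adaptor without ligase activity that is strongly induced by NF-κB. The score of Traf6 was 0.00787 and 0.0105 in control B cells and 0.0123 and 0.0114 in cKO B cells. The cKO samples were higher, and the controls were 1.33-fold apart, the widest gap within a group among the regulators. The fold change was 1.30 (95% interval 0.997 to 1.69, limma adjusted p = 0.227), and without control replicate 2 the gene passed the test (log2 fold change 0.58, limma adjusted p = 0.0437). Traf1 had scores of 0.0759 and 0.0780 in control B cells and 0.0869 and 0.0723 in cKO B cells, so that the controls lay between the cKO samples. Its fold change was 1.03 (95% interval 0.855 to 1.24, limma adjusted p = 0.837). Both genes are on chromosome 2, Traf1 on the minus strand at chr2:34797270-34817292 and Traf6 on the plus strand at chr2:101518586-101541826.

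Peli1 encodes Pellino-1, a ubiquitin ligase that acts with the IRAK kinases. The score of Peli1 was 0.0323 and 0.0272 in control B cells and 0.0325 and 0.0371 in cKO B cells. The lower cKO sample was just above the higher control, and the fold change was 1.17 (95% interval 0.954 to 1.44, limma adjusted p = 0.318). The gene lies on the plus strand at chr11:20991294-21050326.

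Zc3h12a encodes Regnase-1, an RNase that cleaves stem-loops in the mRNAs of Nfkbiz, Il6 and other inflammatory genes. The score of Zc3h12a was 0.0354 and 0.0374 in control B cells and 0.0313 and 0.0330 in cKO B cells. The cKO samples were lower without overlap, with a fold change of 0.885 (95% interval 0.765 to 1.02, limma adjusted p = 0.286). The score of Zc3h12a was 1.47 and 1.65 times that of Nfkbiz in control B cells and 2.47 and 2.86 times in cKO B cells, since Nfkbiz was lower in cKO B cells. The gene is on the minus strand at chr4:124795667-124805084.

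On the scale of the score, which is per exon length if the reading above holds, Traf1 had the highest level in both groups, at means of 0.0769 ± 0.00144 (SD, n = 2) in control and 0.0796 ± 0.0103 (SD, n = 2) in cKO B cells. In control B cells Tnfaip3, Zc3h12a, Peli1, Cyld, Tnip1, Irak2, Tnip2, Irak3 and Traf6 followed in that order. The ranges of the samples overlapped there between Tnfaip3 and Zc3h12a and between Peli1 and Cyld. In cKO B cells the order was Traf1, Peli1, Zc3h12a, Tnfaip3, Tnip1, Cyld, Irak2, Tnip2, Traf6 and Irak3. The ranges of Peli1, Zc3h12a and Tnfaip3 all overlapped each other there. Among all genes tested, the mean score over the 4 samples placed the regulators between percentile 29.4 (Traf6) and 89.1 (Traf1).

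The genes that work with the regulators were read from lists in the same fit, and those that did not pass are named as examples chosen after their values were seen. Of 12 partners of A20, the ABIN proteins and CYLD, 11 were tested and 0 passed; 3 were higher by unadjusted p and 0 lower, against 10.8% and 11.5% of all genes tested. Their median log2 fold change was 0.08, and the groups were separate in the upward direction for 5 and in the downward direction for 1, against 28.1% and 30.1% of all genes tested. Of 17 TLR adaptors and kinases, such as Myd88 and Irak4, 16 were tested and 0 passed, 2 being higher by unadjusted p and 0 lower, with a median of -0.01. Of 9 other TRAF, Pellino and cIAP genes, 7 were tested and 0 passed, 1 being higher by unadjusted p and 0 lower, with a median of 0.05, and the Pellino genes Peli2 and Peli3 stayed below the minimum at scores up to 0.00026. In these lists, then, no gene passed the test in either direction.

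A list of 11 genes of the Regnase family and of mRNA decay had 10 tested genes, of which 0 passed and 4 were higher at an unadjusted p under 0.05 (0 lower), against 10.8% of all genes tested. It had the highest median of the pathway lists, 0.23, and for 7 of the 10 both cKO scores were above both control scores, against 28.1% of all genes tested. Examples are Zfp36l1, which encodes a protein that binds AU-rich mRNAs (log2 fold change 0.36, limma adjusted p = 0.132), and Rc3h1, which encodes Roquin-1, a repressor that shares mRNA targets with Regnase-1 (0.30, limma adjusted p = 0.181).

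Of 10 known Regnase-1 targets, 4 were tested and 1 passed, the deleted gene Nfkbiz itself. The others were Nfkbid (log2 fold change 0.56, limma adjusted p = 0.0621), which encodes another nuclear IκB protein, Rel (0.21, limma adjusted p = 0.229), an NF-κB subunit, and Tfrc (-0.46, limma adjusted p = 0.0769), the transferrin receptor. These lay on both sides of no change. The other 6 targets were below the minimum. Among them Il6, an inflammatory cytokine, had scores of 0.00203 and 0.00039 in control B cells and 0.0001 and 0 in cKO B cells, and Tnfrsf4, a costimulatory receptor, had 0.00164 and 0.00211 in control B cells and 0.00441 and 0.00386 in cKO B cells, so that they lay in opposite directions. Il2, Il12b, Icos and Ptgs2 reached at most 0.00125 in any sample.

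Of 13 other inhibitors of TLR and NF-κB signalling, 11 were tested and 0 passed, with a median log2 fold change of -0.03. By unadjusted p, 3 were lower and 1 was higher, against 11.5% and 10.8% of all genes tested. The groups were separate downward for 4 and upward for 5, against 30.1% and 28.1% of all genes tested. Nfkbia, which encodes the NF-κB inhibitor IκBα, had scores of 0.166 and 0.170 in control B cells and 0.138 and 0.149 in cKO B cells (log2 fold change -0.23, limma adjusted p = 0.188). Atf3, a transcription factor that represses TLR4-induced genes, had the largest difference of the list, -1.92 (limma adjusted p = 0.0563). Atf3 reached the minimum only in control replicate 1. Its scores were 0.00688 and 0.00441 in control and 0.00133 and 0.00143 in cKO B cells.

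**Figure D4:**
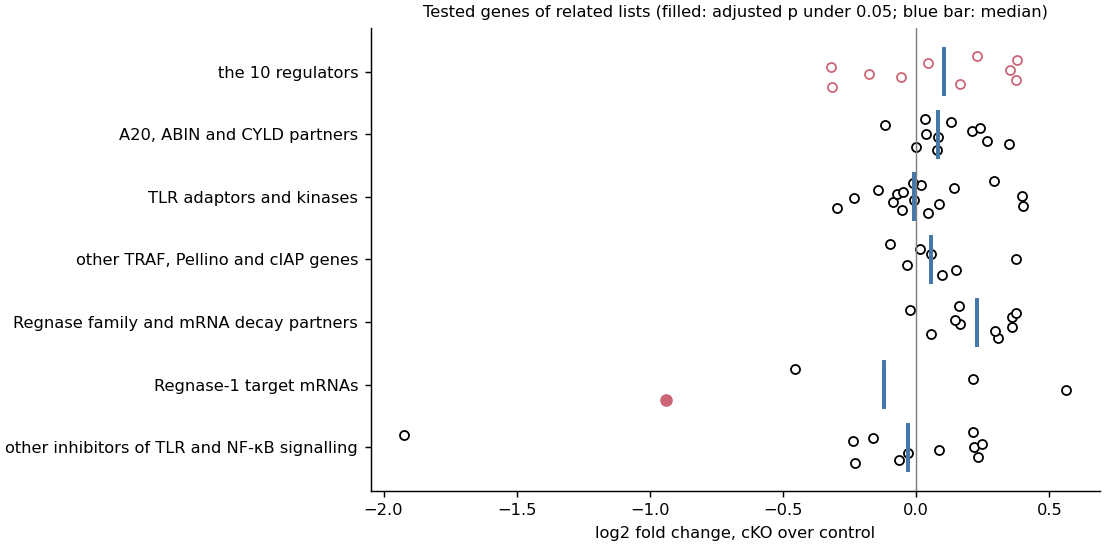
Log2 fold change (cKO over control, x axis) of the tested genes of each list (rows); each point is a gene, filled where the limma adjusted p was under 0.05, and the blue bar is the median of the row. Nfkbiz at -0.94 is the filled point, and the medians lie between -0.12 and 0.23.

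The samples were also read for markers of other cells. Of 13 myeloid markers, 7 were tested, and Fcer1g, a signalling chain of Fc receptors, passed as higher in cKO samples (log2 fold change 1.66, limma adjusted p = 0.0420) while 0 were lower. By unadjusted p, 4 of the 7 were higher, against 10.8% of all genes tested, and for 5 of the 7 the cKO samples both scored above the controls, against 28.1%. Those 5 were Fcer1g, Lyz1 (log2 fold change 1.46), Lyz2 (1.39), Cd68 (0.75) and Tyrobp (0.55), and the other two were Itgam (0.00) and Cybb (0.02), which made up most of the summed score. That sum was 0.310 to 0.326 in control samples and 0.373 in both cKO samples. Lyz1 reached the minimum only in cKO samples. Below the minimum, Cd14 had 0.00281 and 0.00173 in control and 0.00484 and 0.00433 in cKO samples. Csf1r had 0.00261 and 0.00183 in control and 0.00345 and 0.00305 in cKO samples. Emr1 had 0.00222 and 0.00269 in control and 0.00301 and 0.00357 in cKO samples. S100a8 overlapped between groups. S100a9 was at 0 in all 4 samples and Mpo in 3 of them.

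Of 13 T and NK cell markers, 1 was tested and 0 passed. It was Lck, a kinase of T cell receptor signalling, with scores of 0.0318 and 0.0437 in control and 0.0690 and 0.0636 in cKO samples (log2 fold change 0.83, limma adjusted p = 0.0734, unadjusted 0.00218), and it gave most of the summed score of 0.0356 to 0.0472 in control and 0.0692 to 0.0755 in cKO samples. Among the untested markers, Thy1 had scores of 0.00003 in both controls and 0.00069 and 0.00085 in cKO samples, and Nkg7 had 0.00041 and 0.00033 in controls and 0.00175 and 0.00124 in cKO samples. Prf1 went the other way, with 0.00057 and 0.00061 in controls and 0.00051 and 0.00022 in cKO samples. Cd8b1 overlapped between groups, at 0.00216 and 0.00149 in controls and 0.00225 and 0.00208 in cKO samples. Cd8a, Ncr1 and Klrb1c, at most 0.00028, were not separate either. Cd3e, Cd3d and Cd3g were higher in both cKO samples and reached at most 0.0006. Gzma was at 0 in all 4 samples and Cd4 in 3 of them.

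The plasma cell list held 7 symbols, with Jchain entered also under its older name Igj. Of these, 6 were found among the genes of each sample, and 5 were tested. Prdm1, which encodes the plasma cell regulator Blimp-1, was lower in cKO samples (log2 fold change -2.82, limma adjusted p = 0.0429) and 0 were higher. Prdm1 reached the minimum only in control replicate 1. Its scores were 0.00835 and 0.00458 in control and 0.00083 and 0.00075 in cKO samples. By unadjusted p, 2 were lower (Prdm1 and Igj) and 1 was higher, against 11.5% and 10.8% of all genes tested. The higher one was Sdc1, the surface marker CD138, which reached the minimum only in cKO samples. Its scores were 0.00398 and 0.00418 in control and 0.00814 and 0.00604 in cKO samples (log2 fold change 0.77, limma adjusted p = 0.116). The groups were separate downward for 2 and upward for 2 of the 5, against 30.1% and 28.1% of all genes tested. The summed score overlapped between groups, at 0.253 to 0.314 in control and 0.224 to 0.273 in cKO samples. The part of these cells in the scores of the regulators was not tested.

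**Figure D5:**
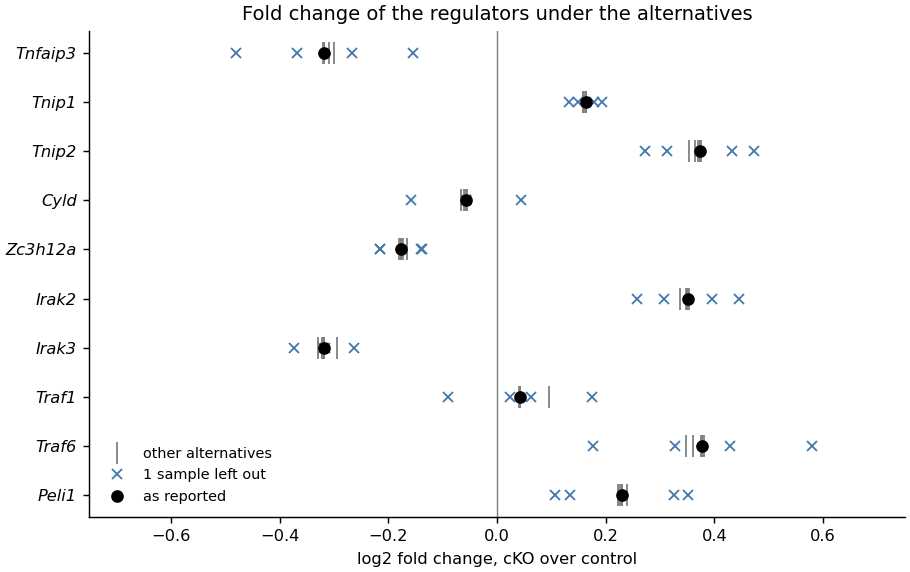
Log2 fold change (cKO over control, x axis) of each regulator as reported (black), with 1 sample left out (crosses) and under the other alternatives (grey bars). Leaving out 1 sample moved the values most, from 0.18 to 0.58 for Traf6, and turned the sign for Cyld and Traf1.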

How the data were processed

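Purified splenic B cells of control and cKO mice were sequenced after LPS stimulation (2 samples each). Per the labels and methods, mapping was to mm9 by TopHat2, with a filter on base quality and removal of rRNA and tRNA by bedtools, after which the authors deposited a score for each gene. The step from reads to the score was not given in the sources used here.

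The 9727 genes that reached 0.005 in any sample were fitted in R 4.3.3 by limma 3.58.1 (lmFit, then eBayes with a variance trend) after adding 0.0001 and taking log2, and p-values were adjusted by Benjamini-Hochberg over all 9727 genes (threshold 0.05). Fold changes on this scale understate changes of low genes. The script was tested on simulated data. The members and lists were chosen with earlier results of these data known. All 10 members, Nfkbiz and, from each list, called genes (at most 3) were to be named; other names were chosen after their values were seen. The p-values measure only the spread between these samples, which may be technical. Low scores times exon length (GENCODE, NCBIM37, single-transcript genes of 600 to 1600 bases, products under 0.4) lay within 0.2 of whole steps for 75.4 to 81.9%, which gave the inferred reads, an inference from the values that a multiple of the step would lower. Promoters came from RefSeq (GRCm38.p6). Python 3.11.15, pandas 2.3.3 and numpy 2.4.6 were used.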

Additional observations from a re-analysis of the deposited data

How the results depend on the processing

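Of 131 values of the 10 regulators under alternatives, 128 kept their sign and their side of the threshold. Changing the filter, the variance trend or the block left each fold change as it was, so no sign could turn there. With no filter no gene passed at all, so no regulator could change side there. Without control replicate 2, Traf6 passed the test (log2 fold change 0.58, limma adjusted p = 0.0437), which made the count of regulators higher in cKO B cells range from 0 to 1 with a sample left out. With a sample left out, Cyld ranged from -0.16 to 0.044, changing sign without control replicate 1, and Traf1 from -0.089 to 0.18, changing sign without cKO replicate 1. With the filter above 0.05 only Traf1 of the regulators was tested. Whether same-numbered samples were prepared together was not given in the sources used here, and the correlation of their deviations across genes (Pearson -0.145, Spearman -0.291) cannot decide it. With the replicate number as a block, 0 regulators passed, and the smallest limma adjusted p among them was 0.189. With the crossed replicate block, which paired samples of unlike number and was added after the data were seen, 0 passed as well. The smallest limma adjusted p among the regulators was then 0.0711.

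Counts over all genes moved more, against 122 lower and 79 higher. With the filter above 0.05, 35 genes were higher. With no filter 0 were lower and 0 higher by limma (1538 and 1665 at an unadjusted p under 0.05), and without the variance trend 22 and 11. With the replicate block 177 were higher, and with the crossed replicate block, added after the data were seen, 230 were lower and 212 higher. Leaving out a sample gave 0 to 430 lower and 0 to 500 higher, the lowest without cKO replicate 1 (517 and 424 at an unadjusted p under 0.05) and the highest without control replicate 2. Without cKO replicate 2, 23 were lower and 11 higher, and without control replicate 1, 146 and 125. The cause of these shifts was not tested. With no filter 21582 genes were tested. A sample left alone in its group was assumed to vary like the other group. With 2 samples a group, small changes such as those of the regulators could not be told from the spread between samples.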
